A study of Mus musculus with 17 samples.

Results

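The transcripts described here are those of the kinase gene Mtor, of Angptl7, which lies inside the Mtor gene, and of 8 genes of the mTOR pathway: Rictor, Rptor, Mlst8, Deptor, Tsc1, Tsc2, Akt1 and Rheb. They are 10 of the 37576 genes in the larger of 2 deposited tables, were taken by symbol, and were found in both tables. They were chosen by their levels in the 7 groups and their folds in these comparisons, so what the deposited comparisons give for them is a description and supports nothing by itself. RNA was sequenced from mouse embryonic fibroblasts of strain C57BL/6, taken at day 13.5, in 17 libraries. All cells were immortalized with pRetroSuper-shp19ARF, a retrovirus against p19ARF, so the control groups carry it too. Of the immortalized cells, 9 libraries fall into the Usp28 genotypes +/+, +/- and -/-, with 3 in each. The Ras set is made of duplicates, 8 libraries in 4 groups that also carry pBabe-HRasG12V, an oncogenic Ras: +/+, +/- and -/- cells with pWZL-GFP, and +/+ cells with pWZL-USP28, a vector for USP28. The labels do not say how many embryos, lines or clones stand behind a group, nor whether the Ras duplicates are separate cultures.

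The mTOR kinase works in 2 complexes that share the subunit Mlst8. Complex 1 contains the scaffold Raptor (Rptor), is switched on at the lysosome by the small GTPase Rheb and drives protein synthesis, and complex 2 contains Rictor and phosphorylates the kinase Akt. Akt inhibits the Tsc1-Tsc2 complex, which in turn inactivates Rheb, while Deptor binds mTOR and inhibits it. The mTOR protein is a known target of the ubiquitin ligase Fbw7, whose control by the deubiquitinase Usp28 the study addresses. The values below are of RNA and not of protein. Angptl7 is no pathway member. It encodes a secreted angiopoietin-like protein, best known from the human eye.

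In GRCm38 with the GENCODE M21 annotation, Mtor (ENSMUSG00000028991) runs on the plus strand of chromosome 4 from 148448611 to 148557683. The whole of Angptl7 (ENSMUSG00000028989, chromosome 4, 148495183 to 148500460, minus strand) sits in intron 28 of the 58-exon transcript Mtor-202, and the exons of the genes share 0 bases. Their promoters are shown because the transcripts of both genes were higher together in the USP28 group. Each runs 5′ to 3′ on the strand of its gene, from 250 bases before to 50 bases after the start, with CG dinucleotides in capitals, as RefSeq gives it for GRCm38.p6.
Mtor, chr4:148448332-148448631, plus strand: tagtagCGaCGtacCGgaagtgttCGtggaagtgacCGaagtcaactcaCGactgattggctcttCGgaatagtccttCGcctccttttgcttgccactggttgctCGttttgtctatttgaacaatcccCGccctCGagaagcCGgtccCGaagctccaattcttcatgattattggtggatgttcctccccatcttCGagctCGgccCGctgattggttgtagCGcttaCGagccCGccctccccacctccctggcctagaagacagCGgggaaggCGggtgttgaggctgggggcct
Angptl7, chr4:148500413-148500712, minus strand: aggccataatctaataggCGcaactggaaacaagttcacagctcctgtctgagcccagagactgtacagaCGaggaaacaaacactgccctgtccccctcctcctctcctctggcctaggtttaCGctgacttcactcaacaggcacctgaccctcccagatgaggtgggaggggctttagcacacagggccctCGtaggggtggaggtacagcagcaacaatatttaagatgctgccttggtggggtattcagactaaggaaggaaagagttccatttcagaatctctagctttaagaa
The Mtor promoter holds 21 CG dinucleotides, and 24.8% of the 32851 promoters in the table hold as many or more. That of Angptl7 holds 4, and 38.0% of promoters hold as few or fewer, against a median of 7 over the table. The motif GGGCGG, on either strand, occurs 2 times in the Mtor promoter, 0 times in that of Angptl7 and in 35.7% of all promoters. TGANTCA, the letters bound by AP-1, and CACGTG, the letters bound by Myc and its relatives, were each found 0 times in both windows, and 7.81% and 7.15% of all promoters hold them. A match or its absence describes these windows and says nothing of binding.

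The deposited tables give comparisons against +/+ and no values for single libraries, so no spread between replicates can be given for a gene. Levels are in RPM, reads per 1000000 reads, summed over a group and rebuilt from the deposited values. In units of 1000000 reads, depth per group was 11.4 to 12.4 in the immortalized set and 11.4 to 13.95 in the Ras set. The authors scaled the tables separately, so levels are to be read within a set. Each fold is log2 of the other group over +/+, and its standard error (SE) is implied by the dispersion common to all genes of a comparison, which is too small for genes that vary more than most. A gene is called when the deposited p, adjusted by the method of Benjamini and Hochberg over all genes that average 1 RPM or more in the groups compared, is under 0.05. Usp28 itself measured 16.5, 9.96 and 13.3 RPM in immortalized +/+, +/- and -/- cells, and 26.5, 18.6, 14.8 and 26.4 RPM in Ras +/+, +/-, -/- and USP28 cells. Its transcript was present in every group and no higher with the USP28 vector than in Ras +/+ cells (355 and 301 reads). It thus checks neither the genotypes nor the overexpression, and "-/-" and "USP28 cells" below mean the groups so labelled. Groups also differed in Xist, the RNA that silences an X chromosome in female cells, which measured 89.7, 296 and 126 RPM in immortalized +/+, +/- and -/- cells, 336 RPM in Ras +/+ and 323 RPM in USP28 cells, against 25.5 RPM in Ras +/- and 0.215 RPM in Ras -/- cells. Eif2s3y, a gene of the Y chromosome, measured 18.6, 0 and 14.9 RPM in immortalized +/+, +/- and -/- cells. In the Ras set it measured 0, 0.151, 22.4 and 0.0745 RPM in +/+, +/-, -/- and USP28 cells. Xist and Eif2s3y were both found in immortalized +/+ and -/- cells, so Xist alone does not give the sex of those cells. Ddx3y, also Y-linked, was found in every group. It measured 38.3, 7.89 and 43.8 RPM in immortalized +/+, +/- and -/- cells, and 10.7, 12.4, 57.5 and 13.3 RPM in Ras +/+, +/-, -/- and USP28 cells. It was thus lowest in the groups with Eif2s3y at 0 to 0.151 RPM, and whether its reads there come from a Y chromosome was not tested. Genotype and embryo of origin cannot be told apart in either set. Of 8 fibroblast markers, all 8 reached 1 RPM in each immortalized group and 7 in each Ras group, where Thy1 was at 0 in +/- and USP28 cells and under 1 RPM in the others. The 4 mesothelial markers summed to 23.1, 1170.3 and 10.7 RPM in immortalized +/+, +/- and -/- cells, and to 425, 1013, 6.31 and 467 RPM in Ras +/+, +/-, -/- and USP28 cells. Msln alone made up 425 and 466 RPM of the sums in Ras +/+ and USP28 cells. There Upk3b, Wt1 and Lrrn4 lay at 0 to 0.521 RPM. In both +/- groups Upk3b, Msln and Wt1 were all high, though Msln in Ras +/- cells, at 209 RPM, was under its Ras +/+ level. Lrrn4, a defining marker among them, was at 0 in immortalized +/+, Ras +/+, Ras -/- and USP28 cells. It measured 128 RPM in immortalized +/-, but 2.79 RPM in Ras +/- and 0.352 RPM in immortalized -/- cells. The 5 epithelial markers summed to 263 RPM in immortalized +/- and 986 RPM in Ras +/- cells, against 0.879 to 5.71 RPM elsewhere. The keratins Krt8, Krt18 and Krt14 made up most of these 2 sums. They measured 71.8, 39.0 and 146 RPM in immortalized +/- and 465, 202 and 316 RPM in Ras +/- cells. Epcam was at 0.242 and 0.0757 RPM in these groups. Cdh1 measured 5.73 RPM in immortalized +/- beside 5.22 RPM in +/+, and 2.65 RPM in Ras +/- beside 0.352 RPM in +/+ cells. Endothelial markers summed to 4.09 to 19.3 RPM and macrophage and leukocyte markers to 11.2 to 22.1 RPM over all groups.

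The comparison of Ras cells labelled as overexpressing USP28 with Ras +/+ cells asks what the deubiquitinase changes in transformed cells, and the overexpression is known from the label only. Mtor and Angptl7 rose together, on a background in which few genes rose at all. Mtor measured 59.9 RPM (681 reads) in Ras +/+ and 125 RPM (1684 reads) in USP28 cells, 2.09-fold higher, with a log2 fold of 1.07 (SE 0.19, adjusted p = 6.73e-06). Angptl7 measured 12.8 RPM (145 reads) in Ras +/+ and 64.7 RPM (868 reads) in USP28 cells, 5.06-fold higher, with a log2 fold of 2.34 (SE 0.22, adjusted p = 3.06e-23). Both genes were at their highest of the 4 Ras groups in USP28 cells.

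Of the 10 genes these 2 were called, both higher. Among all 15444 tested genes 1.09% were called, with 14 higher (0.0907%) and 154 lower (0.997%), and since the list was drawn up with this comparison in view nothing is read from the count. Among the 14 higher genes Angptl7 had the smallest p and the largest fold, and Mtor had the second smallest p and ranked 9 by fold. The other 8 listed genes measured log2 folds of -0.31 for Deptor to 0.07 for Tsc1, each with an adjusted p = 1 and an SE of 0.19 to 0.28.

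**Figure D1:**
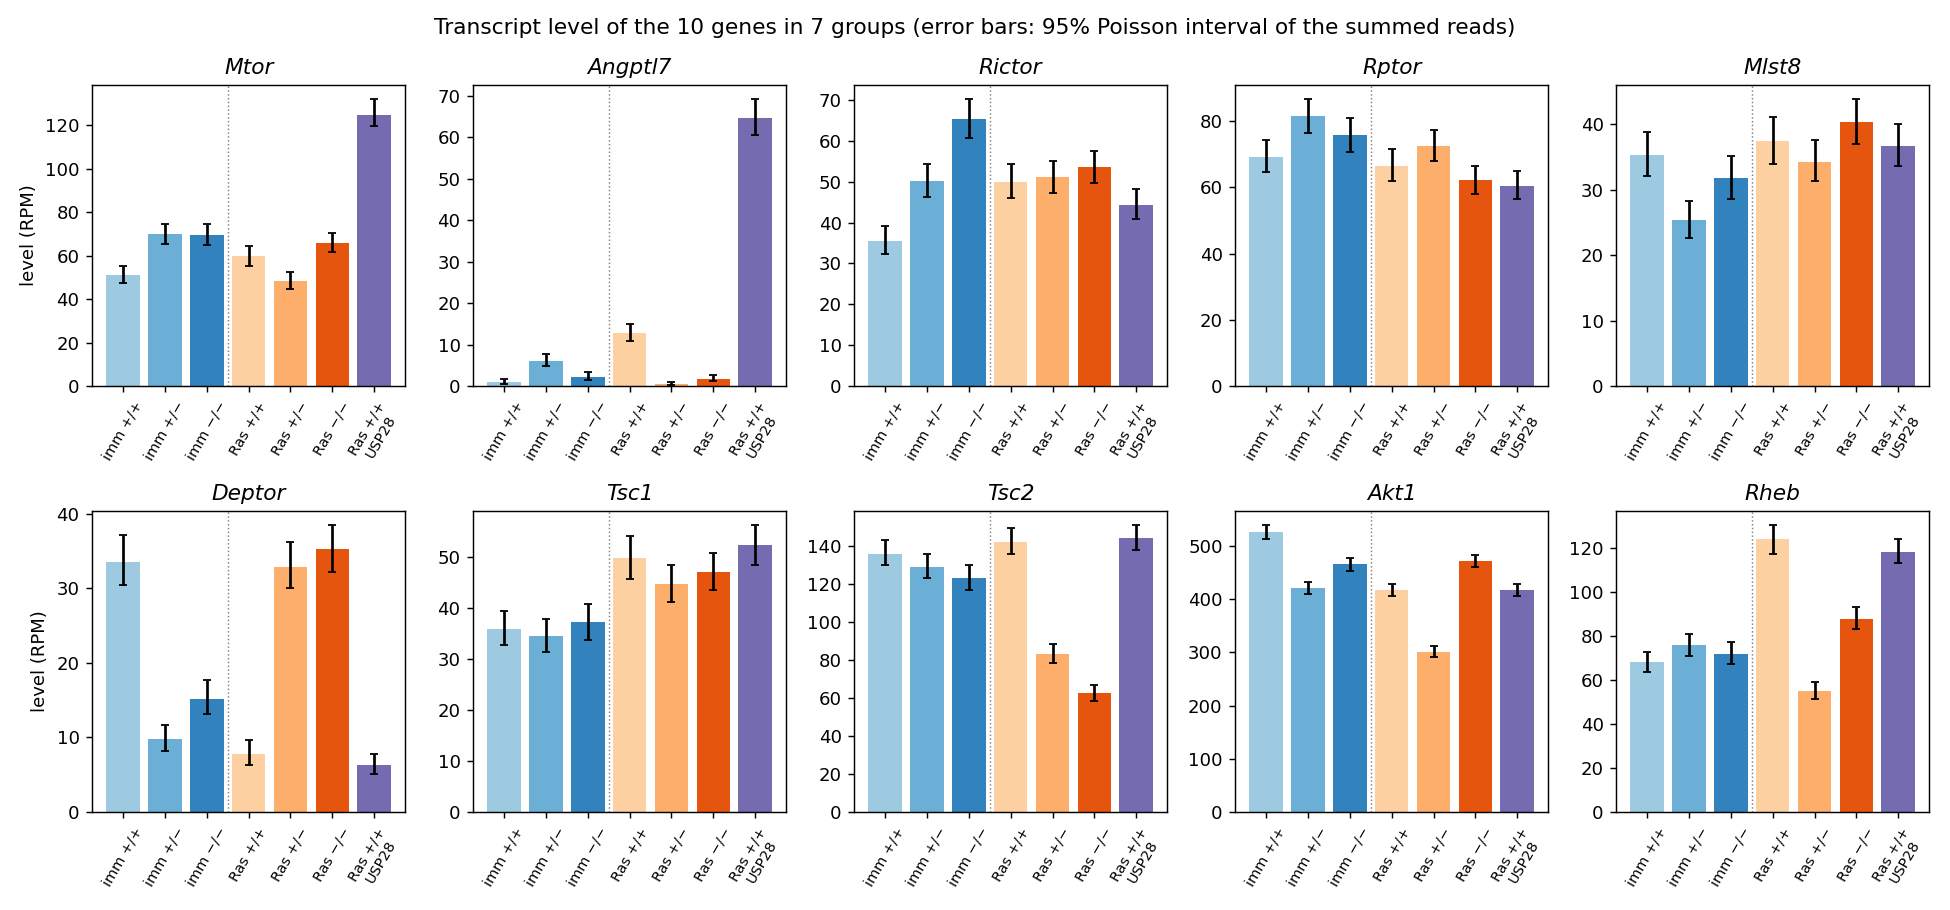
Level in RPM (y axis, linear from 0, with its own scale for each gene) of the 10 genes in the 3 immortalized groups (imm, blue), the 3 Ras genotype groups (orange) and Ras +/+ cells with USP28 (purple), with 95% Poisson intervals of the summed reads, which cover counting error only. Mtor at 125 RPM and Angptl7 at 64.7 RPM stand out in the USP28 group, where the other 8 genes lie near their Ras +/+ level.

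The tested genes around Mtor were not called. Exosc10, a nuclease gene of the RNA exosome beyond the end of Mtor, measured 78.9 RPM in Ras +/+ and 81.0 RPM in USP28 cells (log2 fold 0.04, SE 0.19, adjusted p = 1). Srm, which encodes spermidine synthase, and Masp2, a protease gene of the complement system, had log2 folds of 0.09 and 0.02. On the side of the Mtor start, Disp3 stayed under the level filter at 0.177 RPM in Ras +/+ and 0.521 RPM in USP28 cells, and Fbxo2, which encodes an F-box protein, measured -0.44 (SE 0.40). Of the 46 other genes tested within 1 Mb of Mtor, 0 were called higher and 0 lower in this comparison by the deposited edgeR p, and 0 had an unadjusted p under 0.05. Their median log2 fold was 0.03 and their range was -0.44 (Fbxo2) to 0.51 (Fbxo44, another F-box gene). In the genotype comparisons the same window had 15 of 46 tested genes higher and 3 lower in Ras -/- cells, and 10 of 48 higher and 2 lower in Ras +/- cells, where Mtor was not called and Angptl7 was lower. Of all tested genes, 15.2% were higher and 12.4% lower in Ras -/-, and 17.5% and 16.7% in Ras +/- cells. In immortalized -/- and +/- cells 1 gene of 41 and of 42 was higher and 1 lower, where 1.29% and 5.04% of all genes were higher and 2.93% and 3.21% lower.

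**Figure D2:**
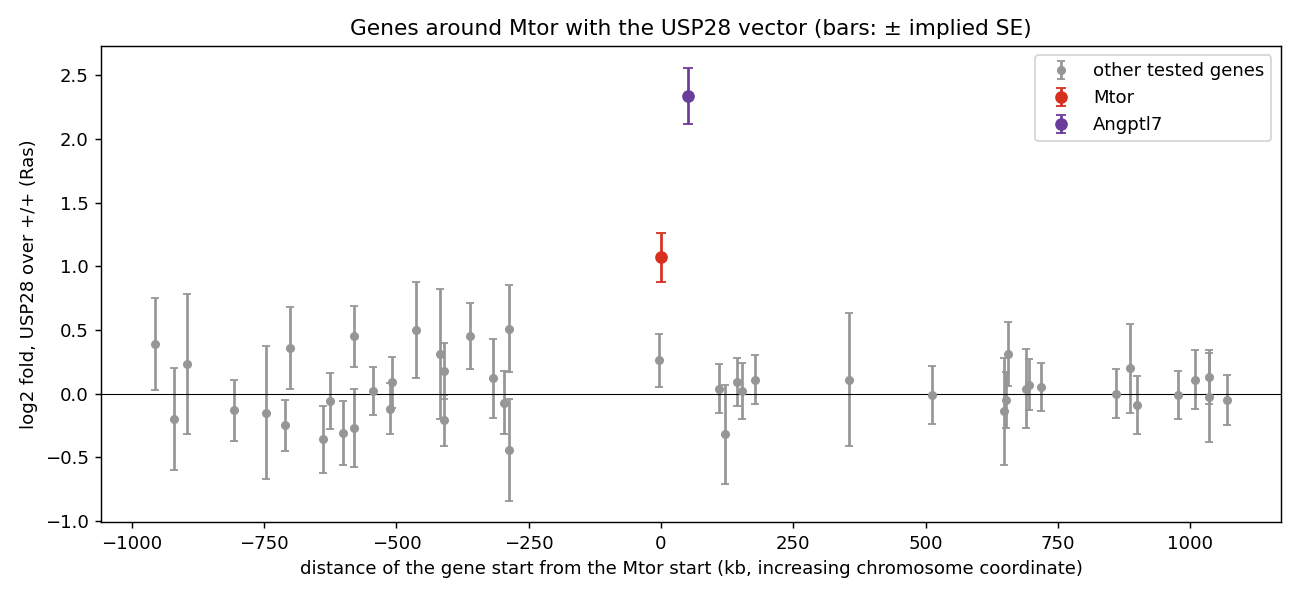
Log2 fold of USP28 over +/+ in Ras cells (y axis) for each tested gene whose body lies within 1 Mb of Mtor, by the distance of its start from the Mtor start in kb (x axis), with bars for the implied SE. Angptl7 at 2.34 and Mtor at 1.07 lie above the other 46 genes, which run from -0.44 to 0.51.

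Per kb of annotated exon, Angptl7 and Mtor had the same level in Ras +/+ cells, 5.94 and 5.93 RPM per kb. In USP28 cells Angptl7 stood at 30.0 RPM per kb and Mtor at 12.4 RPM per kb, a ratio of 2.42. In the other 5 groups the ratio of Angptl7 to Mtor was 0.05 to 0.41. The labels name a pair of library kits without saying which library was made with which, and do not state that strand was kept, so reads of unspliced Mtor RNA and of Angptl7 cannot be told apart inside the exons of Angptl7. The part of unspliced Mtor RNA in the Angptl7 reads was not tested. For these and all levels below, fewer cells with a transcript and less of it per cell cannot be told apart.

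Angptl7 varied most among the 10 genes across genotypes, called higher in immortalized +/- and lower in both Ras genotype comparisons. In the immortalized set it measured 0.985 RPM (12 reads) in +/+, 6.16 RPM (77 reads) in +/- and 2.29 RPM (26 reads) in -/- cells. Its log2 fold was 2.63 (SE 0.58, adjusted p = 0.000161) in +/- and 1.22 (SE 0.55, adjusted p = 0.334) in -/- cells, so that the first was called higher and the second not called. The +/+ level alone is under 1 RPM, and the gene passed the level filter through the other groups. In the Ras set it measured 12.8 RPM in +/+, 0.529 RPM (7 reads) in +/- and 1.79 RPM (25 reads) in -/- cells. It was 24.19-fold lower in Ras +/- (log2 fold -4.60, SE 0.58, adjusted p = 3.98e-24) and 7.14-fold lower in Ras -/- cells (log2 fold -2.84, SE 0.37, adjusted p = 1.16e-14). In the comparison of Ras +/- with +/+ cells it passed the level filter only through the +/+ group. These Ras comparisons share their +/+ libraries with the USP28 comparison. The group order in the Ras set was USP28, +/+, -/- and +/-.

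Mesothelial markers, which can mark other cells of the embryonic body wall and cavities, moved with Angptl7 in some groups and not in others. In the immortalized set both were highest in +/- cells, with a marker sum of 1170.3 RPM against 23.1 and 10.7 RPM in +/+ and -/- cells, and in Ras -/- cells both were low. In Ras +/- cells the marker sum was highest of the Ras set, at 1013 RPM, and Angptl7 was lowest. The markers were split there. Msln was lower than in Ras +/+ cells (209 against 425 RPM), as Angptl7 was. Upk3b (677 against 0.264 RPM), Wt1 (124 against 0.0882 RPM) and Lrrn4 (2.79 against 0 RPM) were higher. From Ras +/+ to USP28 cells Angptl7 went from 12.8 to 64.7 RPM and the marker sum from 425 to 467 RPM. From immortalized +/+ to -/- cells the marker sum was lower, while Angptl7 measured 0.985 and 2.29 RPM and was not called. The part of these markers in the levels of Angptl7 was not tested. The pattern of Angptl7 over the 5 folds was compared with that of other genes, though the implied SE of its own folds runs from 0.22 to 0.58. Of 15330 genes that averaged 1 RPM or more over the groups of each set, 0 lay, with 0.5 reads added to each group, within a root mean square difference of 0.5. The 3 nearest were Ica1l at 1.03, Fez1 at 1.19 and Jph2 at 1.21, and their log2 folds with USP28 were 0.31, 0.18 and 0.37. For Mtor, whose folds are mostly near 0, 853 genes lay within 0.5. The nearest 3 were Gm11367 at 0.26, Gm7823 at 0.30 and D630008O14Rik at 0.30.

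Of the 8 other angiopoietins and angiopoietin-like genes, 5 were tested with USP28, and 0 were called by the deposited edgeR p (2 had an unadjusted p under 0.05). Angptl2, the most abundant of them in RPM, measured 254 RPM in Ras +/+ and 192 RPM in USP28 cells (log2 fold -0.40). In Ras +/- cells 4 of 6 tested were lower and 1 higher, where 16.7% and 17.5% of all genes were, with Angptl2 at 39.9 RPM (log2 fold -2.67, SE 0.22, adjusted p = 1.13e-30). In immortalized +/- cells, where Angptl7 was higher, 3 of 6 were lower, against 3.21% of all genes: Angpt1, a ligand of the Tie2 receptor, went from 23.3 to 3.72 RPM (log2 fold -2.65, SE 0.44, adjusted p = 1.53e-07), Angpt4 fell by 1.93 and Angptl2 by 1.39 on the log2 scale. In immortalized -/- cells 1 of 6 was lower, against 2.93% of all genes, namely Angpt1 (log2 fold -2.47, SE 0.34, adjusted p = 3.89e-11). In Ras -/- cells 1 of 5 was higher and 1 lower, against 15.2% and 12.4% of all genes. The median log2 fold of the tested genes was -0.56 with USP28, -2.02 in Ras +/-, -1.02 in immortalized +/-, -0.32 in immortalized -/- and 0.09 in Ras -/- cells.

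Mtor itself passed the test in 0 of the 4 genotype comparisons against +/+. It measured 51.2, 70.0 and 69.7 RPM in immortalized +/+, +/- and -/- cells, and 59.9, 48.6 and 65.9 RPM in Ras +/+, +/- and -/- cells. Its log2 folds were 0.45 (SE 0.39, adjusted p = 0.852) in immortalized +/-, 0.44 (SE 0.26, adjusted p = 0.454) in immortalized -/-, -0.30 (SE 0.22, adjusted p = 0.31) in Ras +/- and 0.14 (SE 0.22, adjusted p = 0.709) in Ras -/- cells. Outside the USP28 group its level thus ran from 51.2 to 70.0 RPM in the immortalized and from 48.6 to 65.9 RPM in the Ras set.

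Of the subunits that define the complexes, Rictor was called in 1 of the 5 comparisons, and Rptor and Mlst8 in 0. Rictor measured 35.6, 50.2 and 65.3 RPM in immortalized +/+, +/- and -/- cells, and was called higher in the last, 1.83-fold (log2 fold 0.87, SE 0.26, adjusted p = 0.0282). The call was lost when the median of all genes, 0.07, was subtracted from each fold (log2 fold 0.81, adjusted p = 0.0522), and with a doubled dispersion (adjusted p = 0.38). In the Ras set Rictor stayed between 44.4 and 53.5 RPM in the 4 groups, and was not called. Rptor ran from 69.2 to 81.4 RPM in the immortalized and from 60.5 to 72.5 RPM in the Ras set. Mlst8 ran from 25.4 to 35.3 RPM and from 34.3 to 40.3 RPM. Both genes missed the threshold in all 5 comparisons, with log2 folds of -0.14 to 0.23 for Rptor and -0.48 to 0.11 for Mlst8. All 997 exon bases of Bricd5 lie within exons of Mlst8 on the opposite strand, so the counts of these 2 genes are uncertain. Bricd5 measured 12.4 to 17.6 RPM and was not called either.

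Deptor, the inhibitor of both complexes, changed in all 4 genotype comparisons, downward in the immortalized and upward in the Ras set. It measured 33.6, 9.82 and 15.2 RPM in immortalized +/+, +/- and -/- cells. It was 3.43-fold lower in +/- (log2 fold -1.78, SE 0.41, adjusted p = 0.000493) and 2.21-fold lower in -/- cells (log2 fold -1.14, SE 0.28, adjusted p = 0.00278), the second with an adjusted p = 0.109 when the dispersion was doubled. In the Ras set it measured 7.84, 32.9 and 35.3 RPM in +/+, +/- and -/- cells, 4.20-fold higher in +/- (log2 fold 2.07, SE 0.27, adjusted p = 5.14e-14) and 4.50-fold higher in -/- cells (log2 fold 2.17, SE 0.27, adjusted p = 4.29e-15). With USP28 the level was 6.33 RPM, and its log2 fold of -0.31 was not called (SE 0.28). Ras +/+ and USP28 cells thus formed the low pair of the Ras set, while +/+ cells were the high group of the immortalized set. The antisense transcript Gm9920 shares 303 exon bases with Deptor and measured 0 to 1.40 RPM over the groups.

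Upstream of Rheb, Tsc2 moved and Tsc1 did not pass the test. Tsc2, which encodes the GTPase-activating subunit, measured 136, 129 and 123 RPM in immortalized +/+, +/- and -/- cells, with log2 folds of -0.08 and -0.15 that were not called. In the Ras set it measured 142, 83.4 and 62.6 RPM in +/+, +/- and -/- cells and 144 RPM with USP28. It was 1.71-fold lower in Ras +/- (log2 fold -0.77, SE 0.21, adjusted p = 0.00143) and 2.28-fold lower in Ras -/- cells (log2 fold -1.19, SE 0.22, adjusted p = 6.49e-07). Tsc1, whose protein stabilizes that of Tsc2, measured 34.5 to 37.2 RPM in the immortalized and 44.7 to 52.3 RPM in the Ras set, with log2 folds of -0.16 to 0.07. Tsc2 shares 693 exon bases at its end with Pkd1, the polycystin 1 gene on the opposite strand, so part of its reads could belong to Pkd1. Pkd1 measured 209.6 RPM in Ras +/+, 106 RPM in +/- (log2 fold -0.99, SE 0.21, adjusted p = 2.32e-05) and 152 RPM in -/- cells (log2 fold -0.46, SE 0.21, adjusted p = 0.089). Both genes thus measured less in either Ras genotype than in +/+ cells, Pkd1 least in +/- and Tsc2 least in -/- cells. The difference of -/- from +/- was not called for Tsc2 (-0.41, approximate Wald test, adjusted p = 0.343) and is not given for Pkd1. The part of Pkd1 in the reads of Tsc2 was not tested.

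Rheb, the activator of complex 1, measured 68.0, 75.7 and 71.9 RPM in immortalized +/+, +/- and -/- cells, with log2 folds of 0.16 and 0.08 that were not called. In the Ras set it measured 124, 55.1 and 87.7 RPM in +/+, +/- and -/- cells and 118 RPM with USP28. It was 2.24-fold lower in Ras +/- cells (log2 fold -1.17, SE 0.22, adjusted p = 6.61e-07) and had a log2 fold of -0.49 (SE 0.22, adjusted p = 0.0716) in Ras -/- cells. Akt1 was the most abundant of the 10 in RPM and per kb of exon, at 73.5 to 128 RPM per kb. It measured 526, 421 and 465 RPM in immortalized +/+, +/- and -/- cells, and 417, 301, 472 and 417 RPM in Ras +/+, +/-, -/- and USP28 cells. Its lowest log2 fold was -0.47 (SE 0.21, adjusted p = 0.0651) in Ras +/- cells, and in all 5 comparisons it missed the threshold.

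Read against the share of all genes called, the genotype counts of the 10 genes were as follows, again with nothing drawn from them. In immortalized -/- cells 1 was called higher and 1 lower, where 4.21% of all tested genes were called, 1.29% higher and 2.93% lower. In immortalized +/- cells 1 was called higher and 1 lower, against 8.25% of all genes, 5.04% higher and 3.21% lower. In Ras -/- cells 1 was called higher and 2 lower, against 27.6% (15.2% higher, 12.4% lower), and in Ras +/- cells 1 higher and 3 lower, against 34.1% (17.5% higher, 16.7% lower). The median log2 fold of the 10 genes was 0.07, 0.05, 0.01 and -0.23 in that order, beside 0.07, 0.00, -0.01 and 0.01 for all tested genes.

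**Figure D3:**
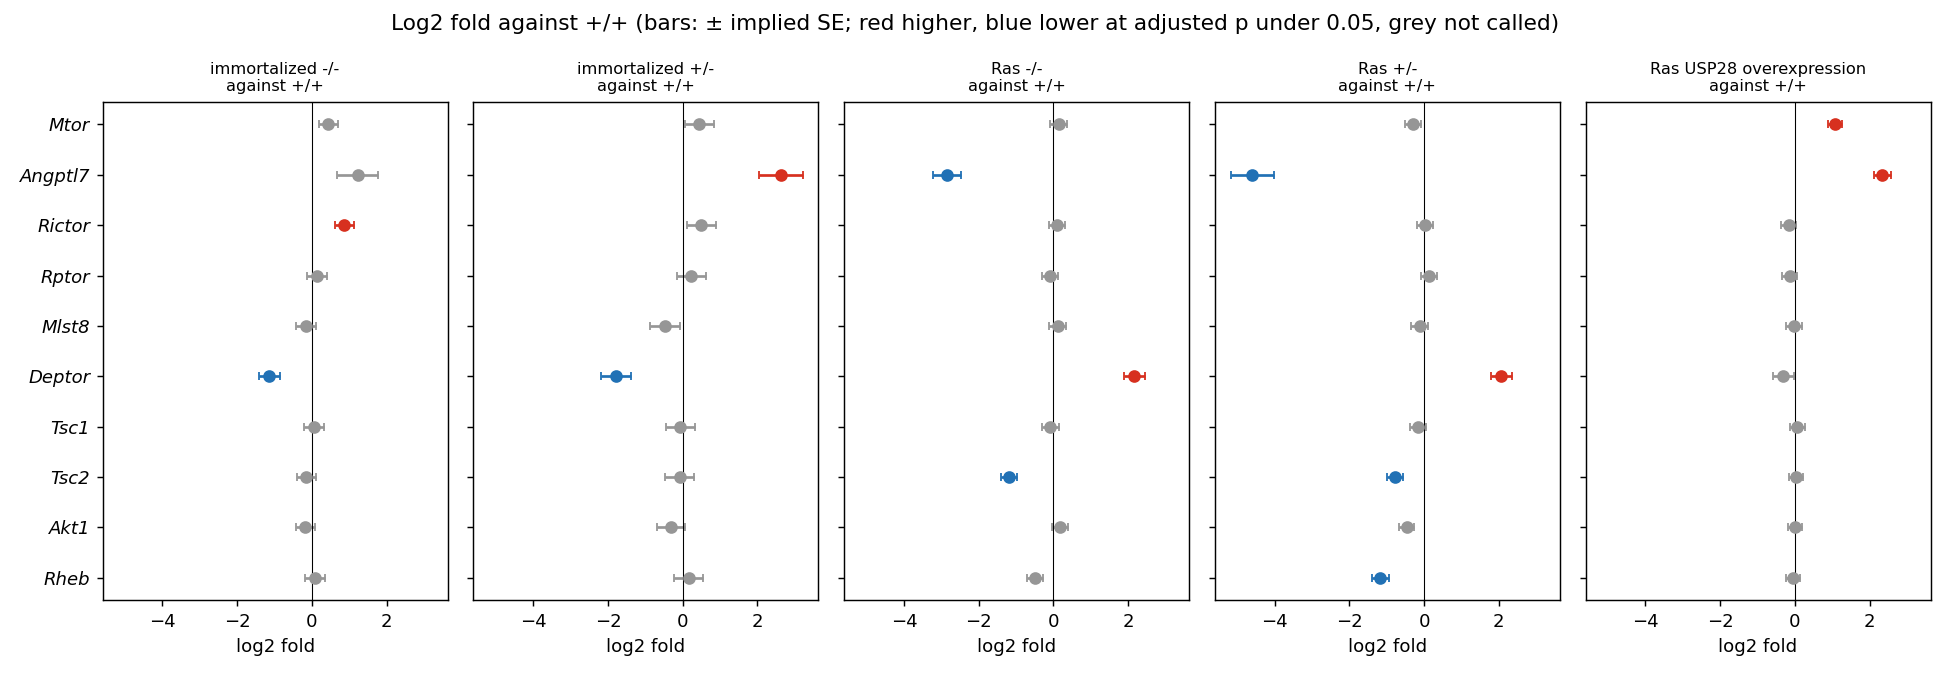
Log2 fold against +/+ (x axis) of each of the 10 genes (y axis) in the 5 comparisons, with bars for the implied SE, red where called higher, blue where called lower and grey where not called. Deptor is blue in both immortalized and red in both Ras genotype comparisons, and Mtor is red with USP28 only among the 5.

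How the folds of a genotype differed between the Ras and the immortalized set is given as the difference of the log2 folds, Ras minus immortalized. The genes were chosen by these folds, so the values and their approximate Wald test are a description. With -/- the difference was -4.00 for Angptl7 (SE 0.67, adjusted p = 5.22e-08), 3.30 for Deptor (SE 0.39, adjusted p = 1.08e-15) and -1.04 for Tsc2 (SE 0.33, adjusted p = 0.0129), and 20.7% of all tested genes were called, 11.4% with a positive and 9.24% with a negative difference. With +/- it was -7.09 for Angptl7 (SE 0.82, adjusted p = 9.38e-16), 3.84 for Deptor (SE 0.49, adjusted p = 4.44e-13) and -1.32 for Rheb (SE 0.44, adjusted p = 0.0264), against 13.3% of all genes, 6.86% positive and 6.42% negative. Deptor was called lower in the immortalized and higher in the Ras set for both genotypes. Angptl7 was called higher in immortalized +/- and lower in Ras +/- cells, while its immortalized -/- fold, from 12 against 26 reads, was not called. For Tsc2 with +/- (-0.69, 95% interval -1.56 to 0.17) and Rheb with -/- (-0.58, 95% interval -1.24 to 0.08) the difference was not called. That of Rictor with -/- was -0.78 (95% interval -1.45 to -0.10, adjusted p = 0.0961). The calls for Tsc2 and Rheb were lost with a doubled dispersion, at an adjusted p = 0.154 and an adjusted p = 0.26. Since Xist and the mesothelial gene Msln also differ between the +/+ groups of the sets, at 89.7 against 336 RPM and 20.9 against 425 RPM, while Upk3b, Wt1 and Lrrn4 were at most 1.95 RPM in both, Ras and the source of the cells cannot be told apart here.

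**Figure D4:**
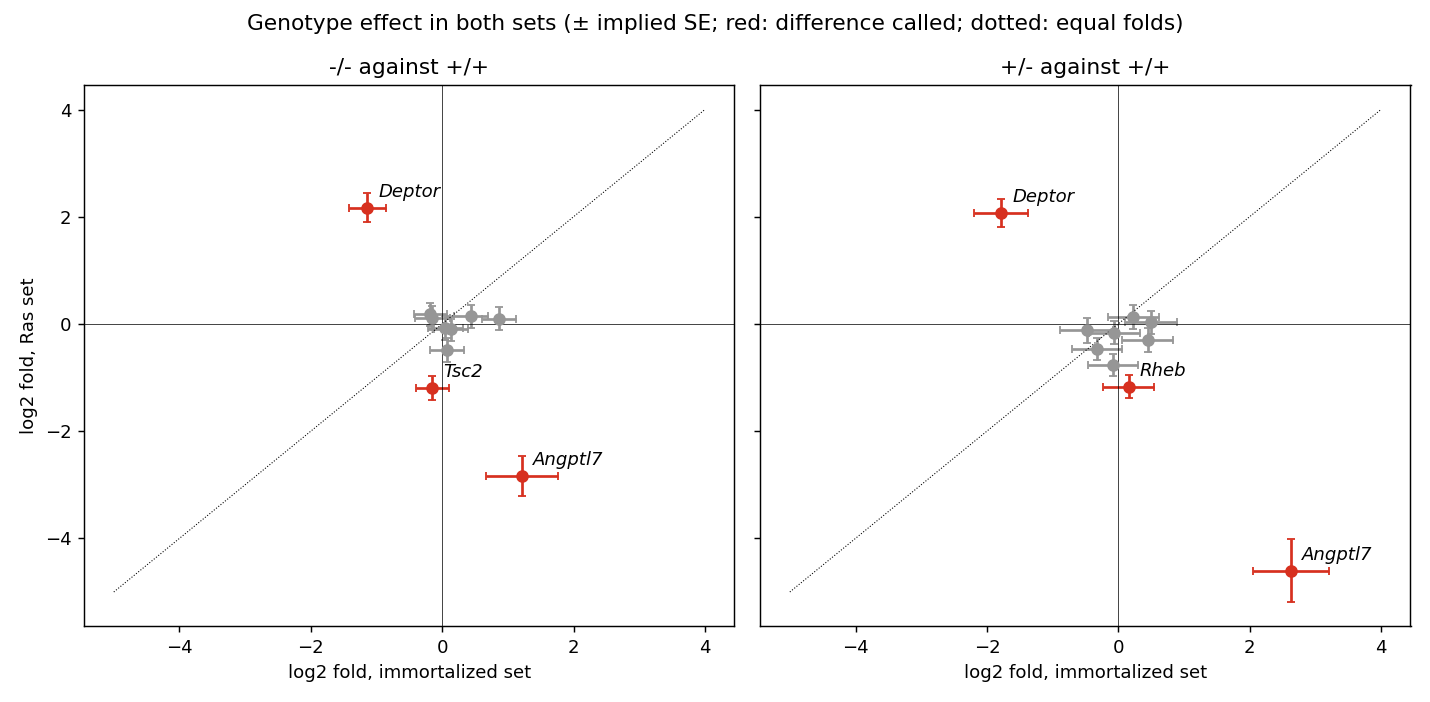
Log2 fold against +/+ in the Ras set (y axis) over that in the immortalized set (x axis) for the 10 genes, with -/- on the left and +/- on the right, bars for the implied SE, and red names where the difference was called. Deptor lies at upper left and Angptl7 at lower right in both panels, away from the dotted line of equal folds.

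The -/- and +/- cells were also set directly against each other. Each group was given the summed dispersion of both comparisons with +/+, an upper bound, so that missed calls do not show small differences. In the immortalized set 0 of the 10 were called by the approximate Wald test (1 had an unadjusted p under 0.05), and 4.68% of all tested genes were, 1.38% higher and 3.3% lower. The difference was -1.41 for Angptl7 (SE 0.56, adjusted p = 0.165), which was called with the mean of both dispersions (SE 0.46, adjusted p = 0.0272), and 0.63 for Deptor (95% interval -0.32 to 1.59). In the Ras set 1 of the 10 was called, Angptl7 at 1.69 (SE 0.67, adjusted p = 0.0469), against 24.5% of all genes, 12.8% higher and 11.7% lower. This call rests on 25 reads (1.79 RPM) in -/- and 7 reads (0.529 RPM) in +/- cells. Angptl7 passed the level filter here only through the -/- group. With 2 reads added to each group in place of 0.5 it was not called (adjusted p = 0.0634), nor with a doubled dispersion (adjusted p = 0.111). Deptor differed by 0.10 (95% interval -0.50 to 0.70) and Tsc2 by -0.41 (SE 0.30, adjusted p = 0.343). Akt1 at 0.65 (SE 0.29, adjusted p = 0.0945) and Rheb at 0.67 (SE 0.30, adjusted p = 0.0881) were not called. With the mean of both dispersions both were, Akt1 with an SE of 0.21 (adjusted p = 0.00756) and Rheb with an SE of 0.22 (adjusted p = 0.00787).

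A wider list of 82 genes of the pathway outside the 10 was read in the same comparisons. Of all tested genes, 0.0907% were higher and 0.997% lower with USP28. The shares were 1.29% and 2.93% in immortalized -/- and 5.04% and 3.21% in immortalized +/- cells. Of the 79 that could be tested with USP28, 0 rose and 1 fell, and their median log2 fold was 0.02, that of all genes 0.01. The lower gene was Grb10, an adaptor that restrains insulin receptor signalling and is itself a substrate of mTOR complex 1, which went from 194 to 87.4 RPM (log2 fold -1.15, SE 0.19, adjusted p = 2.87e-07). In immortalized -/- cells 2 of 82 were higher and 0 lower: Pik3cb, a catalytic subunit of PI3-kinase, from 24.3 to 44.8 RPM (log2 fold 0.88, SE 0.27, adjusted p = 0.0311), and Sgk1, a kinase that complex 2 activates, from 182 to 316 RPM (log2 fold 0.80, SE 0.25, adjusted p = 0.0389). In immortalized +/- cells 2 of 82 were higher and 0 lower: Rragd, a Rag GTPase of the lysosome, from 0.646 to 2.99 RPM (log2 fold 2.21, SE 0.67, adjusted p = 0.014), and Ddit4l, a stress-induced inhibitor of complex 1, from 6.93 to 18.5 RPM (log2 fold 1.42, SE 0.42, adjusted p = 0.0151). Rragd had 8 reads in +/+ and 37 in +/- cells, and passed the level filter only through the +/- group.

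More of the 82 genes moved in the Ras genotype comparisons, as did more of all genes. In Ras -/- cells 21 of 81 tested were higher, where 15.2% of all genes were, and 10 were lower, where 12.4% were. The median log2 fold was 0.12. Prr5, a subunit of complex 2, went from 21.1 to 2.15 RPM (log2 fold -3.29, SE 0.35, adjusted p = 8e-23), and its relative Prr5l from 16.5 to 5.52 RPM (log2 fold -1.58, SE 0.29, adjusted p = 4.45e-07). Eif4ebp1, a repressor of translation that complex 1 switches off, went from 181 to 63.6 RPM (log2 fold -1.51, SE 0.22, adjusted p = 1.09e-10). Grb10 was higher, from 194 to 554 RPM (log2 fold 1.51, SE 0.21, adjusted p = 2.88e-11), as were Castor2 (log2 fold 1.56, SE 0.25), a relative of an arginine sensor, and Ddit4l (0.352 to 5.88 RPM, log2 fold 4.06, SE 0.73). Ddit4l had 4 reads in +/+ and 82 in -/- cells, and passed the level filter only through the -/- group.

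In Ras +/- cells 18 of 81 were higher, against 17.5% of all genes, and 14 lower, against 16.7%, with a median log2 fold of 0.04. Ddit4l went from 0.352 to 10.7 RPM (log2 fold 4.92, SE 0.72, adjusted p = 4.37e-20), Pdcd4, a translation inhibitor under the kinase S6K, from 8.47 to 44.7 RPM (log2 fold 2.40, SE 0.26, adjusted p = 2.11e-19) and Pik3r1, a regulatory subunit of PI3-kinase, from 23.7 to 88.0 RPM (log2 fold 1.89, SE 0.23, adjusted p = 4.16e-15). Prkaa2, a catalytic subunit of the energy sensor AMPK, went from 6.94 to 0.680 RPM (log2 fold -3.35, SE 0.54, adjusted p = 2.89e-12). Ddit4l (4 and 141 reads) lay under 1 RPM in +/+ and Prkaa2 (79 and 9 reads) in +/- cells. Each passed the level filter only through the other group. Grb10 was lower here, at 70.1 RPM (log2 fold -1.47, SE 0.21, adjusted p = 1.17e-10). The group counts that follow are to be read beside the shares of all genes. These were 15.2% higher and 12.4% lower in Ras -/-, and 17.5% and 16.7% in Ras +/- cells. By group, the 7 nutrient sensors and stress inhibitors had 4 higher and 0 lower in Ras -/- and 3 higher and 1 lower in Ras +/- cells, with medians of 1.32 and 0.24. The 7 other subunits and assembly factors of the complexes had 0 higher and 3 lower in Ras -/- and 0 higher and 1 lower in Ras +/- cells, with medians of -0.30 and -0.21. The 11 genes of the GATOR and KICSTOR complexes, which relay amino acid supply to complex 1, had 0 called in any of the 5 comparisons by the deposited edgeR p, and 2 had an unadjusted p under 0.05, both in Ras +/- cells. Their log2 folds ran from -0.47 to 0.60. Among all tested genes, 4.21% and 8.25% were called in immortalized -/- and +/- cells. The share was 27.6% and 34.1% in Ras -/- and +/- cells, and 1.09% with USP28. Of the 13 genes of the Rag GTPases, Ragulator and folliculin, 12 were tested in the Ras set, with 2 higher and 0 lower in -/- and 3 higher and 3 lower in +/- cells. Among 18 genes of the insulin receptor, PI3-kinase and Akt branch, 6 were higher and 4 lower in Ras -/- and 5 higher and 5 lower in Ras +/- cells. Of 17 genes downstream of mTOR, 5 were higher and 3 lower in Ras -/- and 3 higher and 2 lower in Ras +/- cells. Of the 7 genes of AMPK and its activator Stk11, 2 were higher and 0 lower in Ras -/- and 3 higher and 2 lower in Ras +/- cells. Both Tbc1d7, which encodes the third TSC subunit, and Rhebl1, a relative of Rheb, were higher in Ras -/- cells, and 1 of them, Rhebl1, in Ras +/- cells (3.17 to 9.31 RPM).

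**Figure D5:**
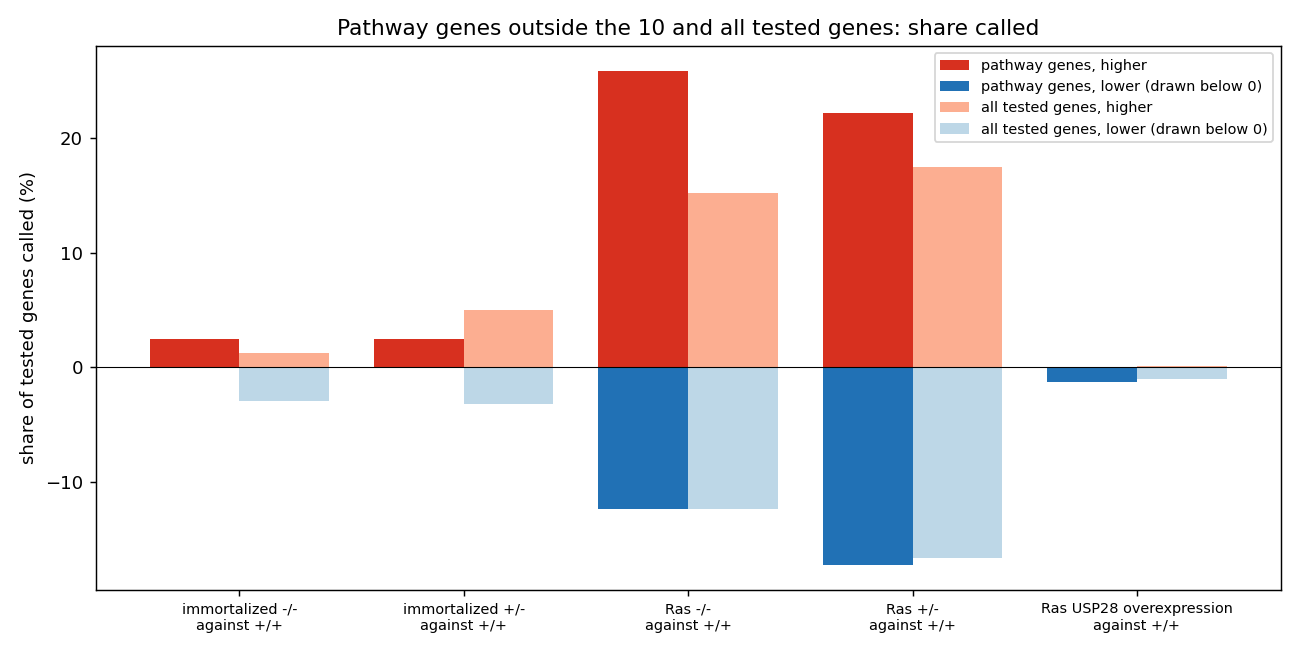
Share of tested genes called (y axis, percent, higher in red above 0 and lower in blue below 0) among the 82 listed pathway genes outside the 10 (dark) and among all tested genes (light) in the 5 comparisons. In Ras -/- cells 21 and 10 of 81 pathway genes were called higher and lower, and with USP28 0 and 1 of 79.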

How the data were processed

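The deposited tables hold the authors' comparisons of each group with +/+, as log2 concentration, log2 ratio and p-value per gene, per the file headers, and the Ras table also their adjusted p-values. Per the submitters' processing notes, CASAVA, FastQC, Bowtie 0.12.8 with mm9 and edgeR were used. The read counter and the handling of strand are not given in the sources used here. The table with a USP28 group was taken as the Ras set and the other as the immortalized set. Repeated lines (24 of 33464 in the Ras, 35 of 37611 in the immortalized table) were dropped, and 97.6% and 86.9% of the gene IDs had a symbol in GENCODE M21.

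Computed here, in Python 3.11.15 with scipy 1.17.1, were group levels, and depth from the steps of 1 read that low values lie on (80.8% to 100% of low values within 0.1 of a whole number). A common dispersion was fitted to the deposited p on genes with at least 50 reads in each group, and corresponds to a variation between libraries of 21.2% and 32.4% for immortalized -/- and +/-, and 14.4%, 14.2% and 12.7% for Ras -/-, +/- and USP28. Rebuilt and deposited z correlated across genes at 0.961 to 0.998. Both rest on the same folds, and the dispersion was fitted to the same p, so this is no independent check of the SE. Deposited p-values were adjusted over genes of at least 1 RPM. Differences between comparisons were tested with an approximate Wald test, with 0.5 reads added to each group. On simulated data of 16727 genes like immortalized -/- against +/+, 93.5% of 200 genes changed 4-fold were recovered with 4 false calls, and on 15444 genes like the USP28 comparison 90.5% with 7. Whether these recoveries and false calls hold for the deposited p, or for genes that vary more than most, was not tested. Intervals cover counting error only where called Poisson. Since the tables hold no libraries, p-values rest on a spread common to all genes, which may be technical where replicates are not separate cultures.

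The members, lists and tests were chosen with earlier results of these data known. Named were all 10 members, up to 6 genes of the wider lists per comparison by smallest adjusted p, the 3 coding genes on either side of Mtor (1 of them is not reported here), and the 3 genes nearest in pattern to Mtor and Angptl7. Fbxo44, Angptl2 with USP28, Tbc1d7, Rhebl1 and the exon-sharing partners were named after their values were seen. Which of the 2 library kits each library was made with is not given in the sources used here, so kit and group may coincide. Promoter entries were found for 9 of 10 members. Exon lengths are from GENCODE M21 and not from the annotation the authors used.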

Additional observations from a re-analysis of the deposited data

Results flagged for a closer look

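The log2 fold of the groups labelled -/- or +/- over +/+ differed between the Ras and the immortalized set, by an approximate Wald test of the difference itself, for 6 of the 20 pairs of a gene and a genotype, where 20.7% (-/-) and 13.3% (+/-) of all tested genes were called. The difference in log2 fold, Ras minus immortalized, was -4.00 (-/-) and -7.09 (+/-) for Angptl7, 3.30 and 3.84 for Deptor, -1.04 (-/-) for Tsc2 and -1.32 (+/-) for Rheb. The genes were chosen by these folds, so this is a description, and genotype and embryo of origin cannot be told apart. Angptl7 had 12 reads in immortalized +/+ and 7 in Ras +/- cells. Groups of 2 or 3 libraries without single values gave no test for outlying samples.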

How the results depend on the processing

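Over the alternatives run, 274 of 278 folds and 133 of 140 differences of the 10 genes kept their direction and side of the threshold. The fold of Tsc1 in immortalized -/- cells turned from 0.05 to -0.02 when folds were centred on the median gene. The other changes were calls lost with a doubled dispersion, by centring or with 2 reads added, and 3 calls gained with the mean of both dispersions, and are given beside their results. The calls of Mtor and Angptl7 with USP28 held, with adjusted p from 6.28e-06 to 0.00942 and from 2.45e-23 to 2.07e-13.

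With a doubled dispersion the count of called genes went from 705 to 285 in immortalized -/-, from 1406 to 815 in immortalized +/- and from 4381 to 2647 in Ras -/- against +/+. It went from 796 to 377 and from 3946 to 2427 for -/- against +/- in the immortalized and the Ras set, and from 3114 to 1679 and from 2021 to 1043 for the difference between sets with -/- and +/-. With the mean of both dispersions, also chosen after seeing the data, -/- against +/- in the immortalized set had 1476 calls. At an adjusted p under 0.01 immortalized -/- had 424 calls. In that comparison with +/+, 215 were higher and 490 lower in the main result, 145 and 565 with folds centred and 46 and 239 with a doubled dispersion. Genes called higher with USP28 numbered 14, and 5 to 13 under the alternatives, with the p rebuilt from the fitted dispersion, an alternative chosen after seeing the data, giving 13. No paired analysis was possible because the tables hold no values for single libraries, and for the same reason no replicate could be left out.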
